A study of Mus musculus with 6 samples.

Results

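The genes described here encode the proteins by which a skeletal muscle fibre releases calcium from the sarcoplasmic reticulum and takes it up again. They were 10 genes chosen by symbol, namely Cacna1s, Ryr1, Trdn, Jph1, Casq1, Casq2, Atp2a1, Atp2a2, Sln and Pvalb, and every probe set annotated with exactly 1 of these symbols was taken. That gave 23 probe sets of the 45037 on the array that were not controls. Of these, 21 were bright enough to be tested, with a mean above a signal of about 21.7 (the 40th percentile of all probe sets), and each gene had at least 1 of them. The 2 others, a probe set of Atp2a2 with signals of 1.01 to 12.1 and a probe set of Sln with signals of 1.43 to 15.4, lay below that level on all 6 arrays.

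Muscle was taken from female integrin alpha7 transgenic mice and from wild type mice, both on an SJ6/C57BL6 background, aged 5 weeks and not fasted. Integrin alpha7 is the chain by which muscle fibres bind laminin, and the promoter that drives the transgene is not given in the labels. RNA came from the gastrocnemius, a mostly fast muscle of the calf, together with the soleus, a slow one, and each of the 3 arrays per genotype carried RNA pooled from 6 animals, 18 animals per genotype. The titles of the wild type arrays also carry the word intronic, which the sources used here do not explain.

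When a fibre is excited, the voltage sensor of the T tubule membrane, whose pore subunit is the product of Cacna1s, opens the release channel Ryr1 in the adjoining sarcoplasmic reticulum. Triadin (Trdn) links that channel to calsequestrin, the calcium-binding protein of the store (Casq1 and Casq2), and junctophilin 1 (Jph1) holds the T tubule and the reticulum together. Calcium is then pumped back by the SERCA pumps, of which Atp2a1 (SERCA1) is the main form of fast fibres and Atp2a2 (SERCA2) that of slow fibres and heart. Sarcolipin (Sln) is a small membrane protein that inhibits the pumps, and parvalbumin (Pvalb) is a soluble calcium buffer of fast fibres.

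The overexpressed gene followed the labels. Itga7 had signals of 2498, 2144 and 2072 in transgenic muscle, against 254, 308 and 313 in wild type muscle, 7.32-fold higher, and limma gave an adjusted p of 1.67e-07. Defining markers of skeletal muscle were bright on all arrays. Their summed signals over 8 genes were 104740 to 108909 in transgenic muscle, below the 114391 to 118408 of wild type muscle. The median log2 difference of these genes (transgenic minus wild type) was -0.11, or -0.02 with quantile normalization and -0.06 with equal array medians. Markers of heart muscle were nearly absent, 4 of 6 genes (Nppa, Nppb, Myl7 and Tnni3) having no probe set above the filter. The 2 that remained summed to 98.8 to 131 in transgenic and 91.0 to 107 in wild type muscle. Smooth muscle markers, 5 genes, summed to 3476 to 4114 in transgenic and 3676 to 3848 in wild type muscle. Adipocyte markers, 3 genes, summed to 6453 to 7313 in transgenic and 6220 to 7370 in wild type muscle. Of these, Ucp1, the uncoupling protein of brown fat, had the smallest adjusted p in limma, 0.327, at 1.30-fold. The 2 others were negative, and the median log2 difference of the 3 was -0.01. Fibroblast markers summed to 12302 to 15853 in transgenic and 13833 to 15138 in wild type muscle over 4 genes. Nerve and Schwann cell markers summed to 4476 to 4984 in transgenic and 4393 to 4826 in wild type muscle over 2 genes. The 4 endothelial markers summed to 881 to 977 in transgenic muscle, below the 1035 to 1127 of wild type muscle. Their median log2 difference was -0.29, with the deposited scaling and with quantile normalization alike. The part of other cell types in the values below was not tested. Fewer cells of a type and less RNA per cell cannot be told apart in such tissue samples.

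No gene of the calcium cycle passed as changed. Of the 21 probe sets tested, 0 had an adjusted p under 0.05 in limma, whereas 33 of 27022 (0.122%) did over the whole array, and the smallest adjusted p among them was 0.496. At an unadjusted p under 0.05 there were 6 lower and 0 higher, where 4.34% of all probe sets were lower and 3.51% higher. The same 6 were those whose 3 transgenic arrays all lay below the 3 wild type ones, a pattern that 7.50% of all probe sets showed, with 5.85% showing the opposite one. They belonged to Trdn (3 probe sets), Casq1, Atp2a1 and Pvalb. The median log2 difference, transgenic minus wild type on the log2(signal + 16) scale, was -0.11 over the 21 probe sets and -0.01 over all tested, and 14 of the 21 were negative. Differences ran from -0.60 to 0.23, and the median half-width of their 95% intervals was 0.21.

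**Figure D1:**
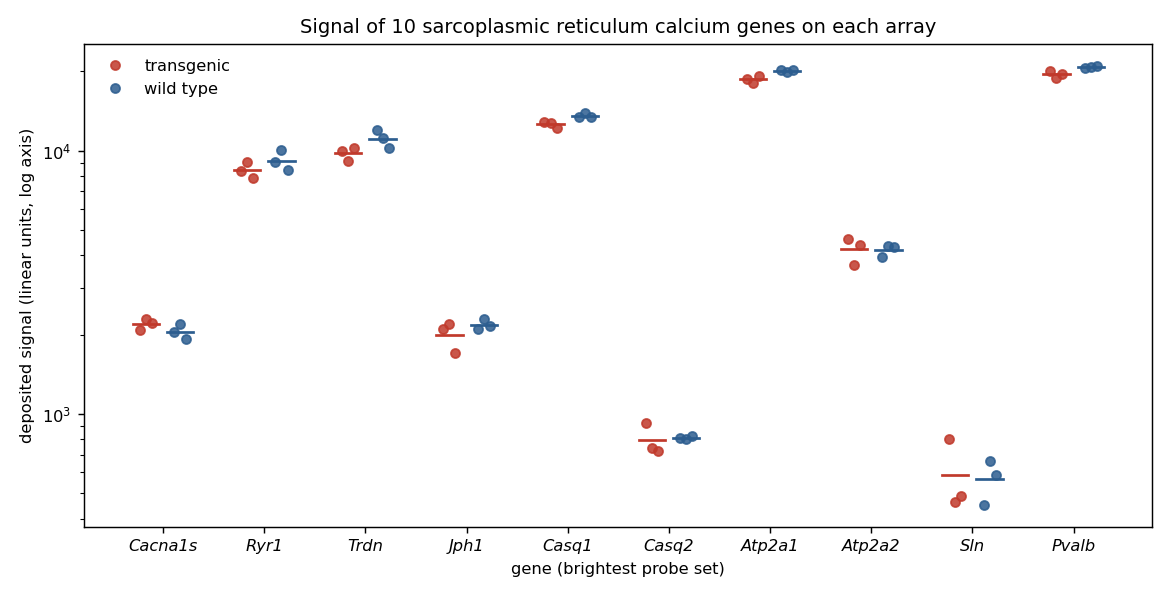
Deposited signal (linear units, log axis) of the brightest probe set of each of the 10 genes, with 1 point per array (transgenic left, wild type right) and a line at the mean of 3 arrays. Groups do not overlap for Trdn, Casq1, Atp2a1 and Pvalb, where the transgenic points lie below, and they overlap for the 6 other genes.

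For the voltage sensor and the release channel, the arrays of the genotypes overlapped on all 3 probe sets. Cacna1s had signals of 2073, 2296 and 2215 in transgenic muscle, against 2046, 2191 and 1919 in wild type muscle. The transgenic arrays lay toward the upper side, and the 1.07-fold difference had a 95% interval of 0.961 to 1.19-fold (limma adjusted p 0.789). Ryr1 had 8360, 9055 and 7847 in transgenic muscle, against 9056, 10017 and 8407 in wild type muscle on its brightest probe set (1427306_at). The lowest array was a transgenic and the highest a wild type one, and the fold was 0.920 with an interval of 0.825 to 1.03. The second probe set of Ryr1 (1457347_at) was dimmer and more variable, at 2116, 2529 and 1147 in transgenic and 2768, 2286 and 2025 in wild type muscle. Its log2 difference of -0.35 rested largely on transgenic replicate 3, since it was -0.81 between the arrays of the later hybridisation round and -0.12 between those of the earlier one.

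Triadin was measured by 6 probe sets, designed on 3 source sequences, and these did not run the same way. The brightest (1426143_at) had 9946, 9127 and 10187 in transgenic muscle, against 11965, 11146 and 10210 in wild type muscle. All transgenic arrays lay below all wild type arrays, though transgenic replicate 3 and wild type replicate 3 were almost equal, and the fold was 0.879 with an interval of 0.796 to 0.971 (limma adjusted p 0.512). A second probe set of the same source sequence (1426144_x_at) had 8111, 7453 and 8225 in transgenic muscle, against 9791, 8890 and 8425 in wild type muscle, and likewise gave 0.879-fold. The third of that source (1426142_a_at) gave a log2 difference of -0.25 with overlapping arrays. These 3 probe sets were designed on the same source sequence and cannot be taken as independent measurements.

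The 3 probe sets on the other source sequences were dimmer. Of these, 1451801_at had 914, 740 and 710 in transgenic muscle, against 700, 684 and 724 in wild type muscle, with overlapping arrays and a log2 difference of 0.15. The last source sequence had a pair of probe sets near the filter level. On 1451940_x_at, a design that may also bind related sequences, the signals were 49.2, 44.4 and 29.6 in transgenic muscle, against 81.8, 57.9 and 70.2 in wild type muscle. Again no transgenic array reached a wild type one, and the log2 difference of -0.60, with an interval of -1.05 to -0.15 (limma adjusted p 0.496), was the largest in size among the 21 probe sets. The other probe set of that source (1426134_at) gave 0.11, with an interval of -0.43 to 0.65. For Trdn as a whole, 4 of 6 probe sets were negative and 2 positive.

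Jph1 was read by a pair of probe sets with overlapping arrays on each. The brighter (1438428_at) had 2092, 2199 and 1703 in transgenic muscle, against 2092, 2289 and 2159 in wild type muscle, so that transgenic replicate 3 alone stood low. The dimmer one (1421520_at) had 780, 550 and 983 in transgenic muscle, against 928, 775 and 934 in wild type muscle, and there transgenic replicate 2 was the low array and replicate 3 the highest of all. Their log2 differences were -0.13 and -0.22, and without transgenic replicate 2 the second was 0.00.

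**Figure D2:**
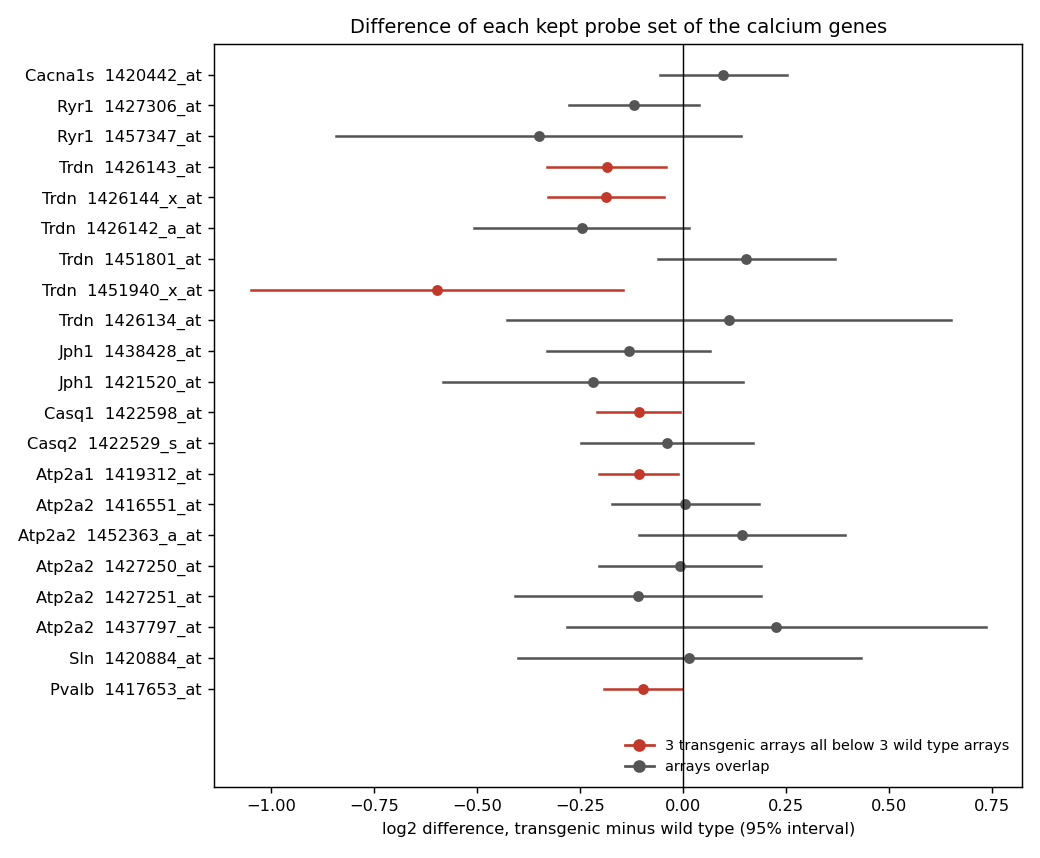
Log2 difference, transgenic minus wild type, of each of the 21 probe sets tested, with its 95% interval from limma. Red marks the 6 probe sets whose 3 transgenic arrays all lie below the 3 wild type arrays, with differences of -0.60 to -0.10, and none of the 21 passed an adjusted p of 0.05.

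Of the calsequestrins, neither form passed the test, and they differed in whether the arrays overlapped. Casq1 had 12842, 12756 and 12166 in transgenic muscle, against 13386, 13858 and 13431 in wild type muscle. Its groups did not overlap, at 0.928-fold with an interval of 0.866 to 0.995 (limma adjusted p 0.609). Casq2, the form of heart and slow fibres, had 920, 739 and 724 in transgenic muscle, against 810, 805 and 820 in wild type muscle. The wild type arrays were within a narrow band and the transgenic ones lay on both sides of it, so that the difference of -0.04 changed sign with equal array medians, to 0.01. Set against each other within an array, the Casq2 and Casq1 values on the log2 scale differed between genotypes by 0.07 more for Casq2, with an exact two-sided permutation p of 0.900 (adjusted over 2 pairs 0.900, 3 arrays against 3, smallest possible p 0.1).

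The upstream sequences of this pair are shown because the promoters of the 2 paralogs differ while their transcripts serve the same store. Of the 10 genes, 6 had an entry among the RefSeq promoters of build GRCm38.p6, 7 entries in all, of which the 250 bases before the start were searched. Capitals mark E-boxes (CANNTG, the motif bound by myogenic regulators such as MyoD) and matches to the MEF2 consensus, both motifs being read the same on either strand, and no E-box overlapped a MEF2 match. Casq1 lies on the minus strand at chr1:172219896-172220145 and Casq2 on the plus strand at chr3:102086165-102086414.
Casq1: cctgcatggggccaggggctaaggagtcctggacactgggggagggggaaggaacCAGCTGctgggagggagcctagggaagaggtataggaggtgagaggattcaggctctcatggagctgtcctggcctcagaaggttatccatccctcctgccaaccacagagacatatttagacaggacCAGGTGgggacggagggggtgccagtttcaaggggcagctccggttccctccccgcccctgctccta
Casq2: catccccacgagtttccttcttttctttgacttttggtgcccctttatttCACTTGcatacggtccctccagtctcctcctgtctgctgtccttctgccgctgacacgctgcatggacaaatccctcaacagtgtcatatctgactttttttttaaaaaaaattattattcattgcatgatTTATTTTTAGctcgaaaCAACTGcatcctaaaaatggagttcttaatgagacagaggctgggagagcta
Each held 2 E-boxes, and the Casq2 window also held 1 MEF2 match, which Casq1 did not. E-boxes were present in 66.2% of the 32851 promoter windows of RefSeq and in 5 of the 7 entries of these genes. The MEF2 consensus was present in 2.92% of all windows and in 2 of the 7, those of Casq2 and of 1 of the 2 Pvalb starts. These matches describe letters and say nothing of binding.

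Of the pump genes, the fast form gave values like those of Casq1. Atp2a1 had 18635, 18139 and 19218 in transgenic muscle, against 20237, 19806 and 20304 in wild type muscle. No transgenic array reached a wild type one, but the fold of 0.928, with an interval of 0.869 to 0.991, had an adjusted p of 0.576 in limma. The log2 difference of -0.11 became 0.02 with quantile normalization and -0.06 with equal array medians.

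The means of Atp2a2, the slow form, lay close together on its brightest probe set (1416551_at), with 4601, 3684 and 4383 in transgenic muscle, against 3936, 4341 and 4297 in wild type muscle. Transgenic replicate 2 was the lowest array and transgenic replicate 1 the highest, and the 95% interval of 0.888 to 1.14-fold around the log2 difference of 0.01 bounds the difference. The next brightest (1452363_a_at) had 2921, 2080 and 2703 in transgenic muscle, against 2055, 2425 and 2444 in wild type muscle, with the same high and low transgenic arrays and a log2 difference of 0.14. Its 3 dimmer tested probe sets gave log2 differences of -0.01, -0.11 and 0.23, with intervals that included 0. Set against Atp2a1 within each array, Atp2a2 was 0.11 higher on the log2 scale in transgenic muscle, with an exact two-sided permutation p of 0.400 (adjusted over the 2 pairs 0.800). With quantile normalization that value was -0.02, and with equal array medians 0.11.

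Sln, the pump inhibitor, varied more between pools than any of the other genes on its brightest probe set. It had 803, 463 and 486 in transgenic muscle, against 451, 661 and 588 in wild type muscle. A single transgenic pool was the highest and a wild type pool the lowest, the ranges overlapped throughout, and the interval of 0.757 to 1.35-fold around 1.01-fold is the widest among the 10 brightest probe sets. Pvalb, the cytosolic buffer, varied little between pools, with 19998, 18871 and 19539 in transgenic muscle, against 20676, 20823 and 20973 in wild type muscle. Its groups did not overlap, at 0.935-fold with an interval of 0.876 to 0.997 (limma adjusted p 0.619). Its log2 difference of -0.10 became 0.02 with quantile normalization and -0.05 with equal array medians.

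Of the 6 calcium probe sets without overlap, 4 were bright, and probe sets of that brightness were mostly lower in transgenic muscle over the whole array. Of the 119 tested probe sets of the whole array with a mean signal of at least 10000, a level chosen after the values were seen, 103 (86.6%) were negative, the median log2 difference was -0.08 and 42.9% had all transgenic arrays below all wild type ones. All 4 calcium probe sets of that brightness, those of Pvalb, Atp2a1, Casq1 and the brightest of Trdn, were among these, with a median of -0.11. Between signals of 1000 and 5000, 7.72% of 1787 probe sets had that order and 0 of the 6 calcium probe sets did, 3 of the 6 being negative. Between 5000 and 10000 it was 12.9% of 318 probe sets and 1 of the 2 calcium ones. Between 100 and 1000 it was 7.19% of 11389 probe sets and 0 of the 6 calcium ones. Below 100 it was 7.29% of 13409 probe sets and 1 of the 3 calcium ones, the Trdn probe set 1451940_x_at. The highest signal on an array was 21386 to 22469 on the transgenic arrays and 23547 to 23952 on the wild type ones. With quantile normalization, which gives all arrays 1 distribution, the median of the 119 bright probe sets was -0.01 and that of the 21 calcium probe sets -0.03. That step makes the highest values equal on every array, so the brightest probe sets as a set move toward a difference of 0 by construction. The number of calcium probe sets without overlap was then 1 of 21, lower in transgenic muscle, where 6.73% of all probe sets were lower and 6.51% higher. With equal array medians it was 3, of which 1 was lower and 2 higher, where 4.45% of all were lower and 8.71% higher. The median log2 difference with equal array medians was -0.03 for the 119 bright probe sets and -0.06 for the 21 calcium ones. The part that brightness plays in the 6 was not tested further.

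**Figure D3:**
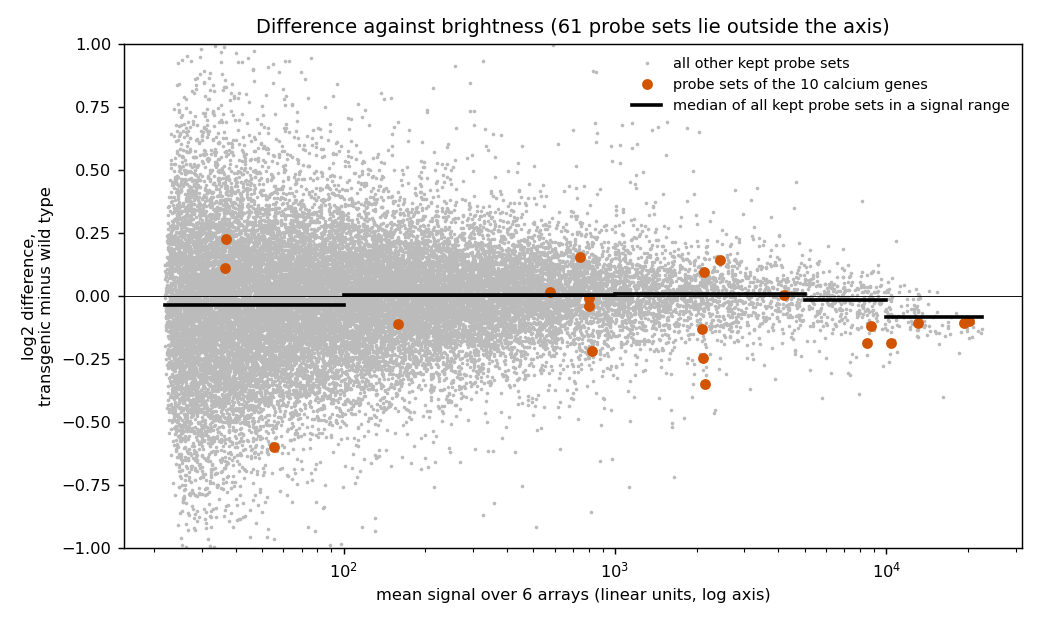
Log2 difference, transgenic minus wild type, against mean signal over 6 arrays (log axis) for all 27022 probe sets tested, with those of the 10 calcium genes in orange and black bars at the median within each of 5 signal ranges. The bar lies at -0.08 above a signal of 10000, where all 4 orange points are negative, and the 61 probe sets with a difference beyond 1 in size lie outside the axis.

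Fibre type markers are given beside these values, since most of the 10 genes differ between fast and slow fibres. Of 10 fast fibre markers, 9 had all transgenic arrays below all wild type ones, an order that 7.50% of all tested probe sets showed. These markers were bright, with mean signals of 14336 to 22470. Of the 119 tested probe sets with a mean signal of at least 10000, which include those of these markers, 42.9% had that order. Of the 10 fast fibre markers, 0 passed over all genes, the smallest adjusted p in limma being 0.290, for the light chain Myl1 at 0.894-fold. Their summed signals were 173404 to 185058 in transgenic and 193570 to 198744 in wild type muscle. The median log2 difference was -0.15, or -0.01 with quantile normalization and -0.095 with equal array medians. Quantile normalization left 1 of the 10 lower without overlap, where 6.73% of all probe sets were. Equal array medians left 3 of the 10, where 4.45% of all were. The 9 slow fibre markers gave a median of -0.03 (-0.01 with quantile normalization and 0.02 with equal array medians). Their summed signals were 34803 to 46663 in transgenic and 39220 to 44122 in wild type muscle, and none of their brightest probe sets was without overlap. Whether a difference in fibre composition contributes was not tested.

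The slow fibre markers also differed among the transgenic pools. On the brightest probe set of each gene, transgenic replicate 2 was the lowest of all 6 arrays for 8 of 9 slow fibre markers and for Atp2a2, and for 3 of 10 fast fibre markers. It was also the lowest for Trdn, Atp2a1 and Pvalb (4 of the 10 calcium genes with Atp2a2), while Casq2 was lowest in transgenic replicate 3 and Sln in wild type replicate 1, as was the second probe set of Atp2a2. Among 23124 probe sets of other genes, the one most like the brightest Atp2a2 probe set, after each genotype's mean was taken off, was that of Myl2, the slow and cardiac regulatory light chain (r = 0.996 over 6 arrays). Next came Elovl1, a fatty acid elongase (0.995), the respiratory chain subunit Ndufb3 (0.994), Gm6277 (0.994) and the chromatin remodeller Chd1 (0.993). For Pvalb they were Pds5b, a cohesin regulator (0.998), the acylglycerol kinase Agk (0.994), Dcaf12 (0.994), the endoplasmic reticulum protein Erp44 (0.993) and Hivep3 (0.992). With 6 arrays and so many probe sets compared, values of this size describe the arrays only.

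**Figure D4:**
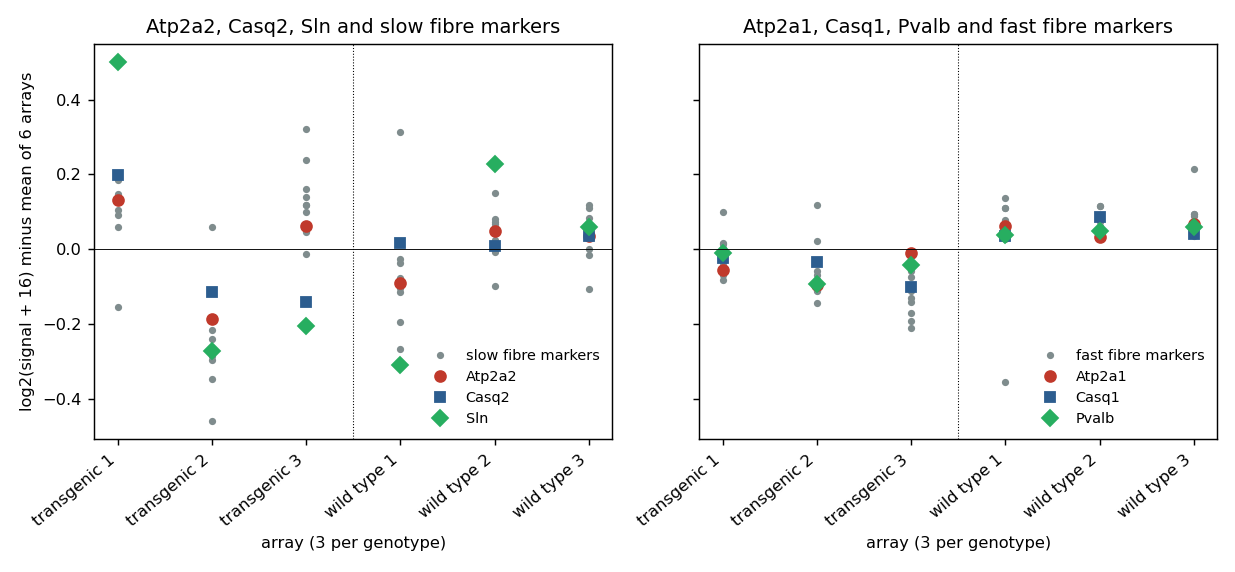
Log2(signal + 16) minus its mean over 6 arrays, by array (transgenic left of the dotted line, wild type right), for Atp2a2, Casq2 and Sln with 9 slow fibre markers and for Atp2a1, Casq1 and Pvalb with 10 fast fibre markers, each at its brightest probe set. Transgenic replicate 2 is lowest for Atp2a2 and for 8 of 9 slow fibre markers. All transgenic points lie below all wild type ones for 9 of 10 fast fibre markers. The same order holds for 42.9% of the 119 tested probe sets with a mean signal of at least 10000, which include those of these markers.

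Hybridisation rounds were not named in the labels. They were inferred from the clock times of hybridisation in the run records, split where a long gap occurred. That gave 2 rounds, with 2 transgenic and 2 wild type arrays in the first and 1 of each in the second. The run records also give a fluidics module for each array, and each module held arrays of 1 genotype only. A difference between genotypes therefore cannot be told apart from one between modules. The median difference of the 21 calcium probe sets was -0.09 in the first round and -0.10 in the second, where all tested probe sets gave -0.01 in each. In both rounds 11 of the 21 were negative and 3 positive, where 7714 of all 27022 tested probe sets were negative and 6617 positive in both. Of the 119 with a mean signal of at least 10000, 88 were negative and 6 positive in both. Casq1 gave -0.09 and -0.14, Atp2a1 -0.12 and -0.08, and Pvalb -0.09 and -0.10. The brightest probe set of Trdn gave -0.28 in the first round and -0.00 in the second, so its difference lay in the first round's arrays. In the first round alone, 0 of the 21 passed in limma.

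Further genes of calcium handling, 70 in 3 lists, were represented by 134 tested probe sets of 58 genes, and 0 passed in limma (0.122% over the whole array). At an unadjusted p under 0.05, 3 of 134 were higher and 8 lower, beside the 3.51% higher and 4.34% lower of all probe sets, and the median log2 difference was -0.01, the same as over all probe sets. The genes named from these lists are those with the smallest p of each list, each at the probe set with its smallest p, so their values are the extremes of their lists, and the gene's other tested probe sets are given beside them. In the list of the release complex and T tubule, 0 of 47 probe sets passed and 21 were positive and 26 negative. Cacna2d1, the auxiliary calcium channel subunit, had on 1 of its 5 probe sets (1449999_a_at) 531, 488 and 420 in transgenic muscle, against 616, 595 and 549 in wild type muscle. The arrays did not overlap on that probe set, at 0.820-fold with an adjusted p of 0.506 in limma, whereas they overlapped on the 4 others of Cacna2d1, at 0.885 to 0.979-fold, the brightest of the 5 giving 0.931-fold. Asph, whose locus encodes junctin and junctate, gave 0.891-fold and 0.898-fold on its 2 brightest probe sets, without overlap, and the 4 dimmer ones of Asph overlapped, with 3 above 1 (1.09 to 1.15-fold) and 1 below (0.915-fold). The potassium channel of the reticulum Tmem38a (TRIC-A) gave 1.17-fold, and 1.07-fold on its second probe set, with overlap on both. The inositol trisphosphate receptor Itpr2, near the filter level, gave 0.681-fold on 1 of its 5 probe sets and 0.852 to 1.08-fold on the 4 others, with overlap on all 5.

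In the list of uptake, store entry and buffers, 0 of 32 probe sets passed, and its 2 leading genes came nearest to the threshold among the 3 lists. Mrln, which encodes myoregulin, a small inhibitor of SERCA pumps in skeletal muscle, had 1039, 1053 and 921 in transgenic muscle, against 1198, 1311 and 1304 in wild type muscle. Every transgenic array was below every wild type one, and the log2 difference of -0.34 had an interval of -0.51 to -0.16 (limma adjusted p 0.224, range over the alternatives 0.0262 to 0.601). Slc8a3, a sodium-calcium exchanger of the plasma membrane, had 282, 242 and 249 in transgenic muscle, against 202, 165 and 182 in wild type muscle. Here the transgenic arrays were all the higher ones, with 1.37-fold, a log2 interval of 0.20 to 0.71 and a limma adjusted p of 0.290 (range 0.0457 to 0.667), and its dimmer probe set gave 1.23-fold with overlapping arrays. Only the fit that took fluidics modules as random blocks took either past the threshold. Each module held 1 genotype there, and the estimated correlation within modules was negative, at -0.44. Smdt1, a subunit of the mitochondrial calcium uniporter, gave 1.15-fold, and Orai2, a store-operated channel with signals of 56.0 or less, 0.659-fold, beside 0.777-fold with overlap on its second probe set.

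Among the calcium-dependent kinase, phosphatase and NFAT genes, 0 of 55 probe sets passed, with 28 positive and 27 negative. The calcineurin catalytic subunit Ppp3cb gave 0.876-fold on 1 of its 4 probe sets (1427468_at), without overlap. Its 3 others overlapped, at 0.952-fold on the brightest of Ppp3cb and 1.02-fold and 1.09-fold on the dimmer ones. Rcan1, a calcineurin regulator whose transcription responds to it, gave 0.857-fold without overlap and 0.911-fold with overlap on its second probe set. Camk2a, a calmodulin-dependent kinase, had on its brightest probe set (1457311_at) 444, 681 and 1280 in transgenic muscle, against 1081, 1198 and 1183 in wild type muscle. Transgenic replicate 3 was the highest of the 6 and the other transgenic pools the lowest, so that the log2 difference of -0.65 (adjusted p 0.593) became -1.04 with an adjusted p of 0.0226 in limma when that array was left out (range over the alternatives 0.0226 to 0.801). The 4 dimmer probe sets of Camk2a gave 0.971 to 1.04-fold, with overlapping arrays. Ppp3cc, a further catalytic subunit of calcineurin, gave 0.674-fold on a probe set with signals of 71.7 or less and 0.924-fold on its second probe set, with overlap on both.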

How the data were processed

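Each of 6 Affymetrix Mouse430_2 arrays, 3 per genotype, carried labelled RNA of 1 pool of calf muscle. Per the submitters' processing notes the software was GCOS 1.1.1, and the deposited values were a linear intensity (signal) for each probe set. Its algorithm and target are not given in the sources. Trimmed means (2% at each end over the probe sets that are not controls) were 149.0 to 149.1, which hides any change common to most transcripts, and the authors' scaling was kept. Medians per array were 34.0 to 38.4; detection calls were not used. The number of arrays limits the precision, and p-values measure the spread between pools. Bright signal can be compressed.

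Of 45101 rows, 64 control rows were left out. Values were analysed as log2(signal + 16), which understates changes of dim transcripts. Probe sets with a mean above the 40th percentile (27022) entered limma 3.58.1 (R 4.3.3), with an intensity trend, no covariates, two-sided tests and Benjamini-Hochberg adjustment over all of them at a threshold of 0.05. Names came from the platform annotation, updated through gene identifiers to RefSeq (GRCm38.p6). The fit was also run on simulated data. The changes added there were larger than most differences of the calcium genes. That run therefore does not show whether differences of such small size would be found.

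All probe sets of the 10 genes are given, and of each further calcium list the 4 genes with the smallest p. List members not matched to a tested probe set were not analysed here. The members, lists and tests were chosen with earlier results of these data known. Alternatives were other offsets, scalings, filters and variance models, array weights, blocks, and leaving out each array in turn. Plots were made with matplotlib 3.10.9.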

Additional observations from a re-analysis of the deposited data

How the results depend on the processing

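None of the 21 calcium probe sets passed in limma under any of 19 alternatives, the smallest adjusted p being 0.0798, with fluidics modules as random blocks (unadjusted, 0 to 8 were under 0.05). The count over the whole array moved from 33 to 50 with equal array medians, 17 with no filter, 1 without the intensity trend and 297 with that module block, and was 18 to 39 with 1 array left out (19 without wild type replicate 1, 18 without wild type replicate 2). The fit with the module block estimated a correlation within modules of -0.44. As each module held 1 genotype, a negative value makes the error of the genotype difference smaller. Further calcium handling genes gave 2 calls with the module block, Mrln and Slc8a3. With 1 array left out they gave 0 to 1 (Camk2a without transgenic replicate 3). The median of the calcium probe sets, -0.11, was -0.034 with quantile normalization, -0.057 with equal array medians and -0.12 to -0.061 with 1 array left out (-0.061 without transgenic replicate 3). Atp2a2 against Atp2a1 was -0.019 with quantile normalization and 0.048 to 0.19 with 1 array left out, and Casq2 against Casq1 -0.025 to 0.13. The 6 calcium probe sets without overlap (13.4% of all in either direction) became 1 with quantile normalization (13.2% of all) and 3 with equal array medians (13.2% of all; 1 lower, 2 higher), alternatives chosen after the data were seen, under which the median of the bright probe sets (-0.084) was -0.0067 and -0.034.

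Of the 21 log2 differences, 8 changed sign somewhere, none of them called. With quantile normalization Atp2a1 was 0.018, Pvalb 0.023 and Atp2a2 (1416551_at) -0.00030. With equal array medians Casq2 was 0.012 and Atp2a2 (1427250_at) 0.043, and that probe set gave 0.025 with the module block. Casq2 gave 0.0018 with array weights and 0.030 in hybridisation round 1 alone, where Atp2a2 (1416551_at) gave -0.0058. With 1 array left out, the ranges of those that changed sign were -0.067 to 0.33 for Trdn (1426134_at), -0.41 to 0.00014 for Jph1 (1421520_at), -0.15 to 0.022 for Casq2 (1422529_s_at), -0.059 to 0.10 for Atp2a2 (1416551_at), -0.061 to 0.084 for Atp2a2 (1427250_at) and -0.23 to 0.16 for Sln (1420884_at). The causes were not tested. With the replicate number as a block, 0 calcium probe sets passed and 36 of the whole array did, and it changed no call of the calcium genes. Deviations from the group means correlated at 0.0030, 0.060 and 0.049 between arrays numbered 1, 2 and 3. The highest correlations with an array of another number were 0.024, 0.018 and -0.019, so the same-number value was the higher for 2 and 3. All of these values were small, the labels do not name pairs, and the numbers were not taken as pairs.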
